A study of Mus musculus with 3 samples.

Results

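The genes described here encode the adrenomedullin and apelin peptides, their receptors, the receptors' partner proteins and a scavenging receptor. They were chosen by gene symbol, and all 8 members (Adm, Calcrl, Ramp1, Ramp2, Ramp3, Ackr3, Apln and Aplnr) were found among the 32285 genes of the count matrices. Single-cell RNA sequencing had been done on 3 libraries (libraries 1, 2 and 3), which form 1 group. Each library held the pooled small intestines, duodenum removed, of 4 wild-type C57Bl/6 female mice aged 9 to 10 weeks, with no treatment group and no transgene. After removal of the epithelium with EDTA and DTT, the tissue was digested with Liberase and DNase for 60 min at 37 °C, and live CD45- CD31+ PDPN+ cells were sorted. Whether 2 libraries could hold cells of the same animals is not stated, so p-values measure only the spread among these 3 libraries, which may be technical.

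Adrenomedullin is a small vasoactive peptide that signals through the calcitonin receptor-like receptor, Calcrl. That receptor reaches the cell surface only with a receptor activity-modifying protein (RAMP): with Ramp2 or Ramp3 it binds adrenomedullin, and with Ramp1 it binds calcitonin gene-related peptide (CGRP). In mice, loss of Adm, Calcrl or Ramp2 impairs lymphatic vessel growth, and in the gut the receptor in lymphatic endothelium is known for keeping lymphatics able to carry fat. Ackr3 is an atypical chemokine receptor that takes up the chemokine Cxcl12 and also adrenomedullin, and so lowers their local amount. Apelin, made from Apln, acts through Aplnr, a receptor best known from sprouting and venous blood vessels.

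The sort gave mostly lymphatic endothelium. Of 22534 barcodes kept (6359, 6707 and 9468 per library), 18553 were lymphatic endothelial cells (LEC), taken as barcodes with at least 1 Prox1 and 5 Lyve1 UMIs that passed no other gate. The LEC numbered 5653, 4765 and 8135, with median depths of 8133, 7088 and 6765 UMIs. Library 2 stood apart: 71.0% of its barcodes were LEC against 88.9% and 85.9%, and it held most of the other cells. LEC had high summed levels of their check markers Flt4, Reln, Ccl21a and Pdpn (12924 to 15398 CPM per library), and the check marker Mmrn1 is listed at 0 in every class. The other classes used here, gated on 2 or more marker genes each, were 141 blood endothelial cells (BEC), 297 fibroblasts, 605 epithelial cells, 99 smooth muscle cells, 191 myeloid cells, 137 T or innate lymphoid cells, 25 glia or neurons and 65 B or plasma cells. The sort selects against most of them, so they are the cells that passed it and not a sample of the gut. In these classes 3 or 4 of the 5 LEC markers were detected, with sums of 92.0 to 439 CPM. Reln stood at 0.636% to 2.22% and Ccl21a at 0.466% to 2.48% of their LEC levels, values against which a low level of a LEC gene elsewhere has to be read. Some classes also held markers of others, as pooled sums. Fibroblast markers summed to 1131 CPM in smooth muscle cells (own markers 31956) and 731 in glia or neurons (own 1694). B or plasma markers summed to 2017 CPM in myeloid cells (own 16865), and myeloid markers to 508 in T or innate lymphoid cells (own 2453). The part of other cells' RNA in the members' levels was not tested. Pairs of libraries shared 13 to 23 kept cell barcodes, and none of the libraries was a copy of another (chi-square over its degrees of freedom 17.8 to 65.2 between LEC sums).

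Levels below are CPM, a gene's UMIs scaled to the UMIs of all cells of a class in a library, given as mean ± SD over 3 libraries. Because 1 end of each transcript is counted, they are not scaled by gene length. Fold changes are log2 values with their SE, from edgeR's quasi-likelihood test with the library as a block and Benjamini-Hochberg adjustment over all genes tested. That test shares its estimate of the spread between genes, so a small p can go with a wide spread of a gene's own values over the libraries. Differences are LEC minus the other class, so a negative value means more in the other class. Every class was compared with the same LEC sums, so the comparisons are not independent of each other.

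The 8 genes lie on 5 chromosomes of the mouse build GRCm38 (mm10). Adm is at chr7:110627661-110629820 on the + strand with 4 exons, Calcrl at chr2:84330626-84425411 on the - strand with 16, and Ackr3 at chr1:90203980-90216751 on the + strand with 2. Ramp1 is at chr1:91179822-91225196, Ramp2 at chr11:101246028-101259546 and Ramp3 at chr11:6658521-6677475, all on the + strand. Apln is at chrX:48025146-48034853 on the - strand, and Aplnr is a single-exon gene at chr2:85136225-85139923 on the + strand. An antisense gene, Gm28863, covers the last exon of Adm. Vps25 on the same strand overlaps the end of Ramp2's annotated span, but not the last exon of the Ramp2 transcript used. A pseudogene, Gm11978, overlaps the start of Ramp3 on the opposite strand. The rule by which the counting assigned such reads was not found in the labels.

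The promoters of Adm, Ackr3 and Calcrl are shown because transcripts of Adm and Ackr3 were both higher in LEC with many immediate-early transcripts. Those of Calcrl, the receptor for adrenomedullin, were not. Each is the 250 bases before the transcription start in RefSeq, build GRCm38.p6, 5′ to 3′ on the strand of the gene, with motif matches in capitals. The gene spans given above come from a different annotation. For Calcrl the RefSeq start lies inside that span, and so does part of its stretch, with the marked GC box.
Adm, chr7:110627407-110627656, + strand: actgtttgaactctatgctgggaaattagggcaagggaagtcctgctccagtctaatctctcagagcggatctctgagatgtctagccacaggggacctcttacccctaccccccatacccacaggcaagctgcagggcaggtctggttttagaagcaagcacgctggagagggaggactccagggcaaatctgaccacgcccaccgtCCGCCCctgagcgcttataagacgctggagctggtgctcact
Ackr3, chr1:90203730-90203979, + strand: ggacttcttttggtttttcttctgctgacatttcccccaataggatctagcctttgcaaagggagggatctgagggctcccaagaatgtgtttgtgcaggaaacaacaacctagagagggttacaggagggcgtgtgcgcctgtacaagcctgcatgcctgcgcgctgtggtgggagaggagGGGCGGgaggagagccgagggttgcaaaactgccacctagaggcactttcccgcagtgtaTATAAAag
Calcrl, chr2:84425267-84425516, - strand: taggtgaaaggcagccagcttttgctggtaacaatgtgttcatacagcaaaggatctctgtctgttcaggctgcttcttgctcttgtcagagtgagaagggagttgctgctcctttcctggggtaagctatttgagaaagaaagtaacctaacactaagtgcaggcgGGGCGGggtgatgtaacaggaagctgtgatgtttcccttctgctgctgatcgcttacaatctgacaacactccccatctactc

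The capitals mark a GC box in all 3 (CCGCCC at position -42 of Adm, GGGCGG at -68 of Ackr3 and at -83 of Calcrl, counted back from the start) and a TATA box (TATAAA) at -8 of Ackr3. Motifs were searched on both strands of windows of 300 bases, from 250 before to 50 after the start, in 32851 promoters. The GC box GGGCGG was in 35.66% of all promoters and the TATA box in 13.62%. Of the 8 members, 6 had a promoter in the table (not Ramp2 and Aplnr), and a GC box was in those of Adm, Ackr3, Calcrl, Ramp3 and Apln. The AP-1 motif TGANTCA (7.81% of all promoters), the cAMP response element TGACGTCA (1.79%) and ACGTG, a form of the hypoxia motif (19.62%), were found in none of the 6 windows. Other forms of these motifs were not searched. These are matches of letters only, and their absence says only that these letters are not in these windows.

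Ligands. Adm was most abundant in the endothelium and fibroblasts. In LEC it stood at 35.1, 20.9 and 24.0 CPM in libraries 1, 2 and 3 (26.7 ± 7.49, n = 3), from 3896 UMIs. BEC had 19.7, 6.65 and 20.4 CPM, from 12 UMIs in all, and fibroblasts 30.2, 10.9 and 13.9 CPM, from 39 UMIs. LEC were above both classes within each library; across libraries the LEC and fibroblast ranges overlapped, while the lowest LEC value lay just above the highest BEC value. Against BEC the difference did not pass the test (log2 0.94 ± 0.43, adjusted p = 0.102), and against fibroblasts it did (0.74 ± 0.23, adjusted p = 0.00934). The fibroblast call was lost without library 2 (0.56, adjusted p = 0.169), without the library block (0.87, adjusted p = 0.0610) and with DESeq2 (0.68, adjusted p = 0.0914). Epithelial cells held 4.38 ± 2.18 CPM (n = 3), below LEC in every library (adjusted p = 0.000276). Myeloid cells had 0 Adm UMIs among 1711094, so LEC were at least 15.4-fold higher, counting 3 UMIs over all myeloid cells as the floor.

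Apln was nearly absent from LEC, with 12 UMIs in 144293819, or 0.0870 ± 0.0553 CPM (n = 3). BEC held 14 UMIs, at 44.4, 3.33 and 15.3 CPM in libraries 1, 2 and 3. All 3 libraries were higher in BEC (log2 difference -7.64 ± 1.02, adjusted p = 1.01e-12). Library 1 held 9 of these 14 UMIs. Without library 1, and in cells thinned to 3000 UMIs, Apln did not pass the filter on low counts, so this difference was not tested there. Apln in fibroblasts rested on 3 UMIs, 1 per library, and its pooled level was 13.6 times that of LEC with a 95% counting interval of 2.46 to 50.4. The remaining classes held 0 to 4 Apln UMIs. The other apelin receptor ligand, Apela, had 0 UMIs in every class.

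Receptors. Calcrl levels of LEC and BEC overlapped, and those of fibroblasts were lower. LEC had 326, 273 and 274 CPM (291 ± 30.6, n = 3) and BEC 325, 413 and 341 CPM (360 ± 46.4), so library 1 showed no gap and the other libraries were higher in BEC. The difference of -0.37 ± 0.16 did not pass (adjusted p = 0.0663), passed without library 1 (-0.54, adjusted p = 0.0162) and was 0.04 in cells thinned to 3000 UMIs. The BEC level varied with the make-up of the class: 30 cells with Madcam1, 23 of them in library 2, held 255 of 381 UMIs. The 111 other BEC held 227, 191 and 251 CPM, below LEC in each library. This split was made after the data were seen and was not tested. Fibroblasts had 189, 205 and 168 CPM, below LEC in every library (log2 0.65 ± 0.09, adjusted p = 2.32e-06). Epithelial cells held 1.31 ± 0.138 CPM, a share of the LEC level below those of Reln (0.636%) and Ccl21a (0.878%) there. Smooth muscle cells held 34 Calcrl UMIs, at 23.5, 17.2 and 78.2 CPM, above those shares in each library.

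Aplnr was the member that differed most between the kinds of endothelium. BEC had 192, 84.8 and 158 CPM (145 ± 54.9, n = 3), against 0.103, 0.0836 and 0.0669 CPM in LEC, from 12 UMIs. The ranges were far apart, and the log2 difference was -10.70 ± 0.60 (adjusted p = 1.54e-68). Fibroblasts held 15.1, 11.6 and 22.7 CPM, again above LEC in every library (log2 difference -7.52 ± 0.62, adjusted p = 1.16e-10). In epithelial, myeloid, T or innate lymphoid and B or plasma cells Aplnr had 0 UMIs; in epithelial cells, the deepest of these classes, this allows up to 0.161 CPM. Aplnr was at 0.472 CPM in LEC when barcodes that also passed another gate were kept as LEC.

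Of the members, 7 passed the filter on low counts in the comparison of LEC with BEC, and 4 were called (Aplnr, Apln, Ramp3 and Ramp2), all higher in BEC, where 25.1% of 12703 genes were called and 12.0% were higher in BEC. Against fibroblasts 8 were tested and 7 called, 4 of them higher in LEC (Ackr3, Ramp2, Adm and Calcrl) and 3 in fibroblasts (Ramp1, Aplnr and Apln), on a background of 49.6% of 13522 genes. The Apln call on 3 UMIs was lost with no filter on low counts (adjusted p = 0.0696) and when barcodes of several gates were kept as LEC (adjusted p = 0.0608). It was not tested in thinned cells, with the stricter LEC gate or without any 1 library, and DESeq2 gave no adjusted p. Against epithelial cells 6 of 6 tested were called, 5 higher in LEC (Ramp1 higher in epithelial cells), where 78.9% of 14030 genes were called.

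**Figure D1:**
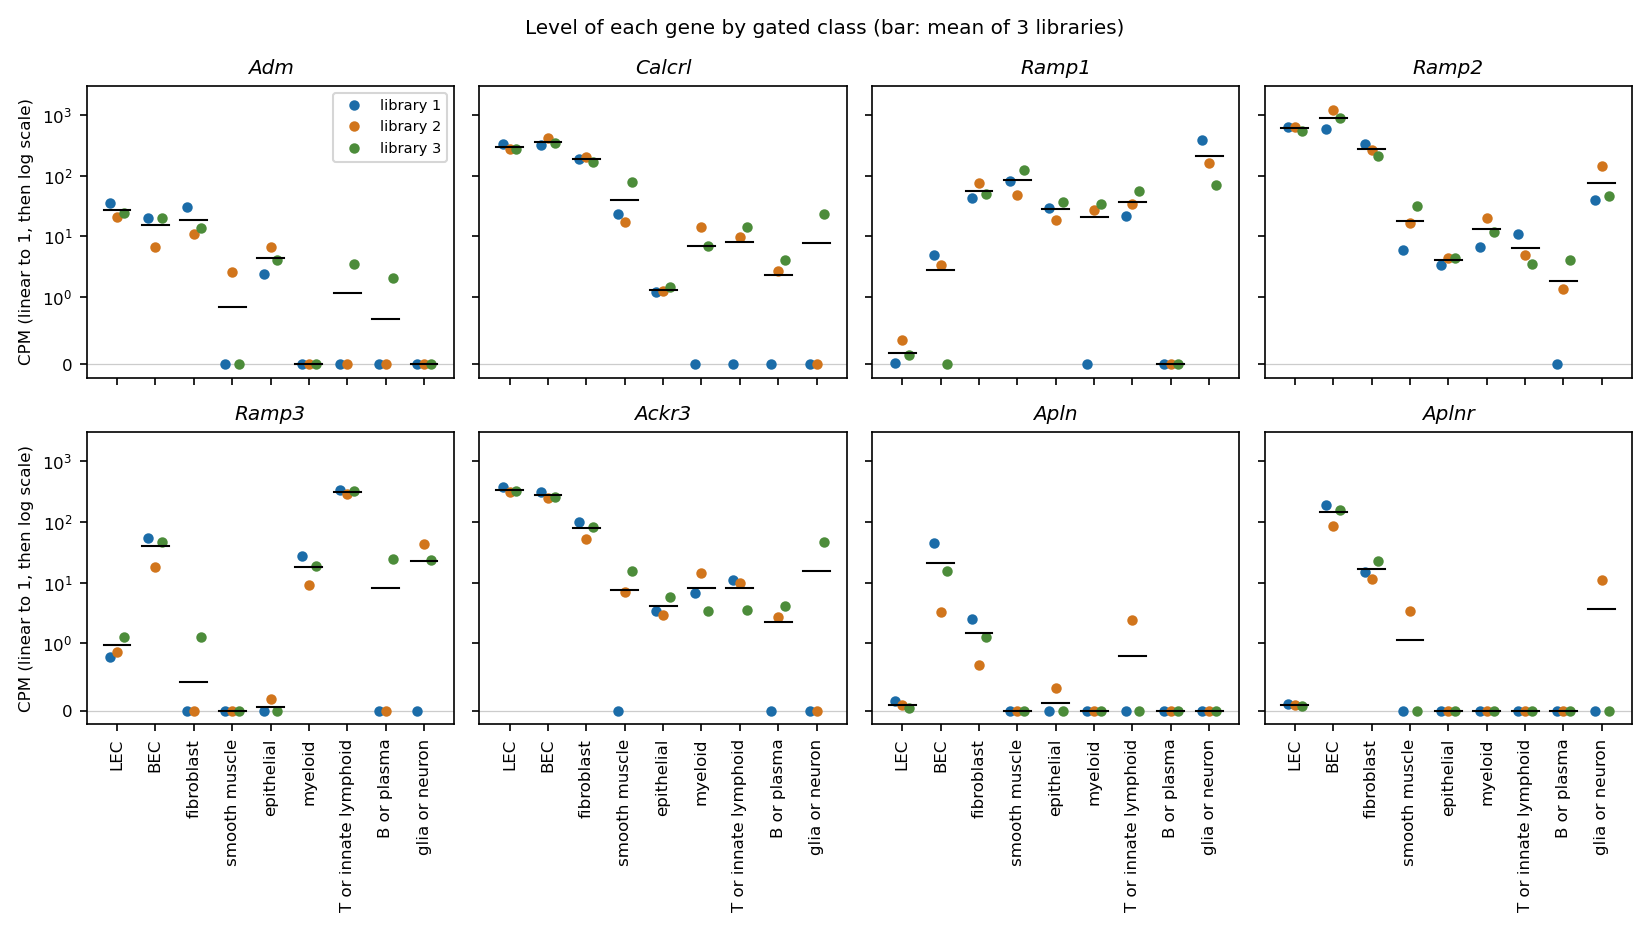
Levels of the 8 genes in CPM (vertical axis, linear up to 1 and logarithmic above) in 9 gated classes (horizontal axis), with 1 point per library and a bar at the mean of 3 libraries. Calcrl, Ramp2 and Ackr3 are high in LEC and BEC, Aplnr, Apln and Ramp3 are low in LEC, and Ramp3 is highest in T or innate lymphoid cells; smooth muscle, myeloid, T or innate lymphoid, B or plasma and glia or neuron sums held fewer than 20 cells in some library.

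RAMPs. Ramp2 made up nearly all RAMP transcripts of the endothelium. In LEC it stood at 644, 639 and 551 CPM (611 ± 52.2, n = 3), and 99.8% of 87351 RAMP UMIs were Ramp2 (exact binomial 95% interval 99.78% to 99.84%). BEC had 596, 1214 and 882 CPM (898 ± 309), higher than LEC in libraries 2 and 3 and lower in library 1. The test called Ramp2 higher in BEC (log2 difference -0.57 ± 0.15, adjusted p = 0.000765). This call rested on library 2 and on library 3, since it was lost without either (-0.28, adjusted p = 0.292, and -0.50, adjusted p = 0.0924). It was also lost without the library block (-0.65, adjusted p = 0.0744), with DESeq2 (-0.58, adjusted p = 0.104) and in thinned cells (-0.32, adjusted p = 0.167). Fibroblasts had 338, 267 and 207 CPM, below LEC by 1.26 ± 0.09 (adjusted p = 5.02e-12).

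Ramp1, the partner for CGRP binding, was close to absent from LEC: 22 UMIs, or 0.172 ± 0.174 CPM (n = 3). Fibroblasts held 42.8, 74.5 and 49.2 CPM, all far above LEC (log2 difference -8.40 ± 0.51, adjusted p = 2.04e-13). Epithelial cells held 29.0, 18.6 and 37.0 CPM (log2 difference -7.62 ± 0.46, adjusted p = 6.98e-07). The Ramp1 level in LEC was 2.02 CPM when barcodes that also passed another gate were kept. In BEC Ramp1 had 3 UMIs and did not pass the filter for the test.

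Ramp3, the alternative adrenomedullin partner, was low in LEC, at 0.802, 0.864 and 1.25 CPM from 145 UMIs, and was measurable in BEC at 54.2, 18.3 and 45.9 CPM from 31 UMIs. It was higher in BEC in every library (log2 difference -5.25 ± 0.62, adjusted p = 6.20e-16). The highest Ramp3 level was in T or innate lymphoid cells, which had 330, 283 and 317 CPM (310 ± 23.8, n = 3), a narrow range well above all other classes. Fibroblasts had 1 Ramp3 UMI and smooth muscle cells 0.

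Smooth muscle, myeloid and T or innate lymphoid sums held as few as 11, 18 and 19 cells in a library, so their tests, with a minimum of 10 cells, were added after the data were seen. T or innate lymphoid cells were above LEC in Ramp3 (log2 difference -8.17 ± 0.27, adjusted p = 8.13e-189) and in Ramp1 (-7.77 ± 0.92, adjusted p = 4.95e-16). Smooth muscle cells held Ramp1 at 82.3, 47.2 and 125 CPM, above LEC (log2 difference -8.86 ± 0.54, adjusted p = 3.37e-58). Myeloid cells held Ramp3 at 26.9, 9.19 and 18.9 CPM, above LEC (log2 difference -4.04 ± 0.70, adjusted p = 3.37e-06), but these 24 UMIs were in 6.28% of cells, and after thinning to 3000 UMIs 0 of 177 cells had one, so that Ramp3 could not be tested there. Against smooth muscle 5 of 6 tested members were called (background 38.6%, and 22.5% higher in LEC), against myeloid cells 5 of 5 (45.3%, and 28.8% higher in LEC) and against T or innate lymphoid cells 6 of 6 (39.4%, with 24.5% higher in LEC and 14.9% higher in the other class). In all 3 comparisons Adm, Calcrl, Ramp2 and Ackr3 were the members higher in LEC.

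The make-up of the RAMP transcripts thus changed from class to class, although counts of different genes also depend on how each transcript's end is captured. Ramp2 was 96.8% of 1058 RAMP UMIs in BEC (interval 95.5% to 97.8%) and 80.6% of 854 in fibroblasts (77.7% to 83.2%), where Ramp1 took 19.3%. Ramp1 was 78.0% of 109 RAMP UMIs in smooth muscle (69.0% to 85.4%) and 84.8% of 520 in epithelial cells (81.4% to 87.8%). The epithelial share came from 55 cells with at least 2 Muc2 UMIs, which held 429 of the 441 Ramp1 UMIs. The other 550 epithelial cells held 12 UMIs of Ramp1 and 67 of Ramp2. Ramp3 was 86.8% of 273 in T or innate lymphoid cells (82.2% to 90.6%), and the share was 84.1% to 90.9% in each library. In the 25 glia or neurons Ramp1 gave 28 of 49 RAMP UMIs, at 175 CPM pooled over the libraries, the highest pooled Ramp1 level of any class. In libraries 1, 2 and 3 it stood at 392, 163 and 70.3 CPM, from 10, 15 and 3 UMIs. Smooth muscle was higher in library 3, at 125 CPM. A gene's intervals here cover counting error only, and Ramp2 in epithelial cells (77 UMIs, 4.03 ± 0.585 CPM) was at 0.68% of its LEC level, between Reln (0.636%) and Ccl21a (0.878%) there.

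**Figure D2:**
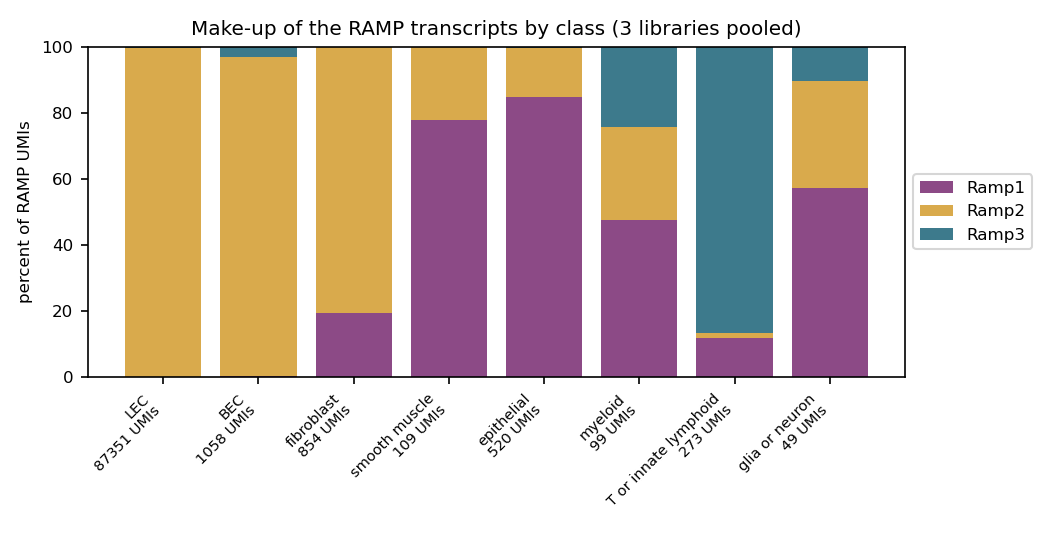
Share of Ramp1, Ramp2 and Ramp3 in the RAMP UMIs of each class (vertical axis, percent, 3 libraries pooled), for classes with at least 20 such UMIs. LEC and BEC are nearly all Ramp2 (99.8% and 96.8%), smooth muscle and epithelial cells mostly Ramp1 (78.0% and 84.8%), and T or innate lymphoid cells mostly Ramp3 (86.8%). In epithelial cells, 429 of 441 Ramp1 UMIs came from 55 cells with Muc2.

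Scavenging receptor. Ackr3 levels were highest in the endothelium. LEC had 371, 312 and 321 CPM (335 ± 31.9, n = 3) and BEC 311, 251 and 255 CPM (272 ± 33.3), with LEC higher in every library and the largest BEC value just below the lowest LEC value. The difference did not pass the test (log2 0.26 ± 0.16, adjusted p = 0.270), which does not show that the levels were alike. Fibroblasts had 101, 52.6 and 82.0 CPM, below LEC by 2.24 ± 0.12 (adjusted p = 2.15e-14). Its chemokine ligand Cxcl12 went the other way: BEC had 845 ± 319 CPM and fibroblasts 934 ± 41.0, against 60.0 ± 2.17 in LEC (n = 3). The log2 differences were -3.79 ± 0.16 (adjusted p = 5.05e-121) and -3.91 ± 0.08 (adjusted p = 2.41e-23). The signalling receptor for Cxcl12, Cxcr4, was at 0.262 ± 0.216 CPM in LEC and 23.4 ± 7.88 in BEC (log2 difference -6.50 ± 0.82, adjusted p = 3.67e-14), while myeloid cells held 248 ± 24.7 CPM.

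Transcripts for CGRP, the ligand for Calcrl with Ramp1, were scarce in the cells that passed the sort. Only 25 of these were glia or neurons, and the amount of the peptide in the gut was not measured. Calcb had 55 UMIs in glia or neurons, all from library 2, and 0 in every other single class. Calca had 31 UMIs in myeloid cells, again all from library 2, and 6 in LEC. Adm2, a related peptide, had 7 UMIs in LEC, and Calcr, the calcitonin receptor, had 1 UMI in BEC and 0 in LEC.

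Within the other classes the members were spread unevenly. The following splits on 1 marker gene, made on pooled cells after the data were seen, are given as levels with 95% Poisson intervals for counting error and no test. Deeper cells more often show a marker UMI, and the part of depth in these contrasts was not tested. Among BEC, the 30 cells with Madcam1, the mucosal addressin of venules that recruit lymphocytes, had a median depth of 10917 UMIs against 5003 in the 111 others. They held Calcrl at 612 CPM (interval 539 to 692) against 216 (180 to 257), and this order was seen in all 3 libraries. The Madcam1 cells numbered only 4, 23 and 3 in libraries 1, 2 and 3, and 195 of their 255 Calcrl UMIs came from library 2. Ramp2 was at 1444 CPM against 723, also in the same order in each library. All 31 Ramp3 UMIs and all 14 Apln UMIs of BEC lay in cells without Madcam1; 0 UMIs allow up to 7.20 CPM in the Madcam1 cells. Aplnr was at 122 CPM with Madcam1 and 120 CPM without, with intervals of 91.1 to 161 and 93.5 to 152. Among BEC with Gja5, a gap junction gene of arteries (14 cells), Aplnr had 0 of the 121 BEC UMIs, which allows up to 31.6 CPM, against 134 CPM (111 to 160) in the others.

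Ramp1 in fibroblasts lay mostly in cells without Fgfr2: these 145 cells held 151 of 165 UMIs, or 133 CPM (113 to 156), against 9.22 CPM (5.04 to 15.5) in the 152 cells with Fgfr2. Ackr3 had the opposite order, with 92.2 CPM (77.6 to 109) in cells with Fgfr2 and 37.0 (26.7 to 50.1) in those without. Both orders held in each library. Among epithelial cells, 55 cells with at least 2 UMIs of the goblet cell mucin Muc2 held 429 of 441 Ramp1 UMIs, at 163 CPM against 0.749 in the rest. Their median depth was 36050 UMIs against 25520 in the rest. Among T or innate lymphoid cells, Ramp3 was at 412 CPM (360 to 470) in the 98 cells without Cd8a and 56.7 CPM (31.0 to 95.2) in the 39 with it, in the same order in each library. By Cd3e the Ramp3 intervals overlapped, at 304 CPM (261 to 351) with it and 291 (218 to 381) without. Of Ramp1, 26 of 32 UMIs were in the 27 cells without Cd3e, all from libraries 2 and 3.

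**Figure D3:**
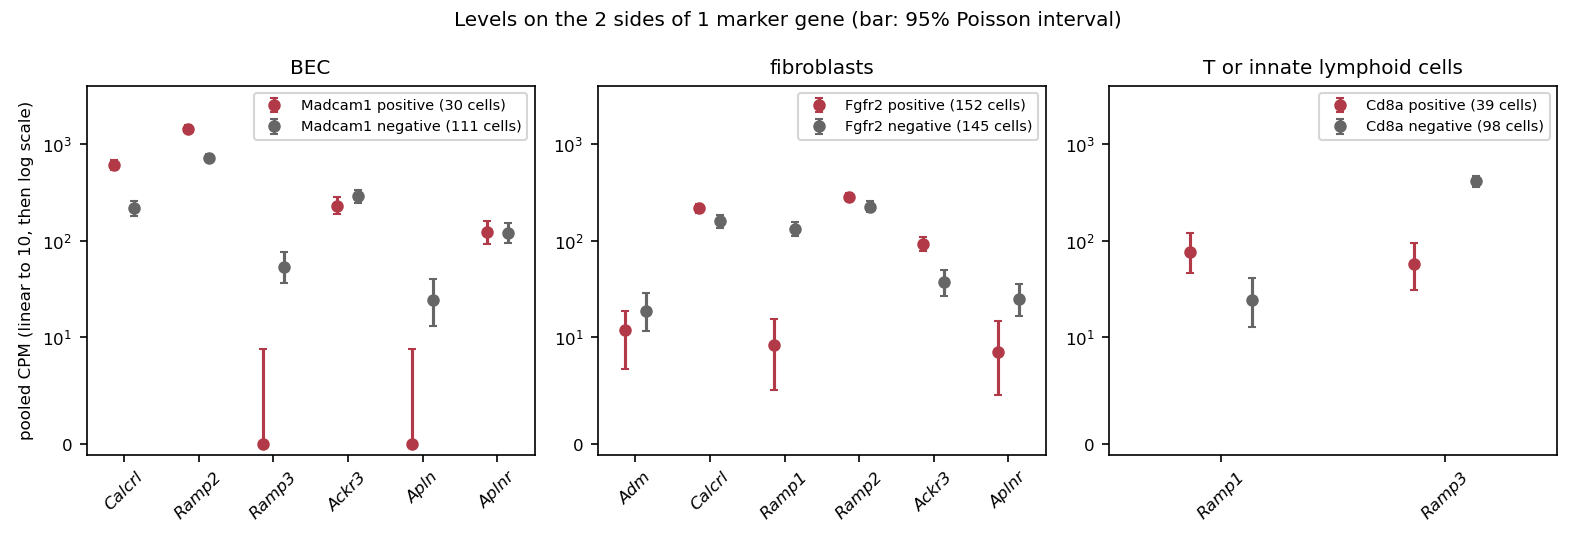
Pooled levels in CPM (vertical axis, linear up to 10 and logarithmic above) of selected members in BEC, fibroblasts and T or innate lymphoid cells, split by 1 marker gene, with bars for 95% Poisson intervals. Madcam1 BEC have more Calcrl (612 against 216 CPM) and no Ramp3 or Apln UMIs, Fgfr2 fibroblasts have little Ramp1 (9.22 against 133 CPM), and Cd8a cells have less Ramp3 (56.7 against 412 CPM).

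Within LEC, UMIs of Calcrl, Ramp2 and Ackr3 were seen in most cells and those of Adm, at its lower level, in few. In 18093 LEC thinned to 3000 UMIs each (460 shallower cells left out), a UMI was seen in 78.4% of cells for Ramp2, 56.9% for Ackr3, 54.6% for Calcrl and 6.28% for Adm. Before thinning these shares were 93.2%, 80.2%, 80.5% and 12.9%. In thinned epithelial cells, which should lack Ramp2, Ackr3 and Calcrl, their shares were 1.88%, 1.71% and 0.684%, with median depths of 26152 UMIs there and 7205 in LEC. The LEC shares lay far above this background. Epithelial cells give no background for Adm, since they held it at 19.8% of its LEC level, well above the shares of Reln and Ccl21a there. Ramp3 was seen in 0.271% of LEC, Ramp1 in 0.0442%, and Apln and Aplnr in 0.0276% each.

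If UMIs fell on equal cells at random (a Poisson spread at the same mean), Ramp2 would be seen in 83.7% of LEC, Ackr3 in 63.9%, Calcrl in 57.8% and Adm in 7.73%, each above the measured share. The variance of UMIs per cell over their mean, which is 1 for a Poisson spread, was 1.60 ± 0.233 for Adm, 1.44 ± 0.0221 for Ackr3, 1.39 ± 0.0271 for Ramp2 and 1.198 ± 0.0167 for Calcrl (n = 3 libraries). The Adm ratio was 1.87 in library 1, where Adm was also highest, and 1.496 and 1.44 in libraries 2 and 3. The top hundredth of LEC held 32.8% of the Adm UMIs, 5.81% for Ackr3, 5.66% for Calcrl and 4.31% for Ramp2. Both measures also depend on a gene's mean, so they give no order of evenness among genes at different levels.

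Across single LEC the correlations between members were near 0. Pearson's r between thinned UMI counts, over 18093 cells as a description, was -0.0141 for Calcrl and Ramp2, -0.0294 for Calcrl and Ackr3, 0.00720 for Adm and Calcrl and -0.0158 for Adm and Ackr3. Calcrl and Ramp2, which act as 1 receptor, were seen together in 42.5% of thinned LEC, where the product of their shares is 42.8%. In counts this sparse, correlations this weak are no finding.

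**Figure D4:**
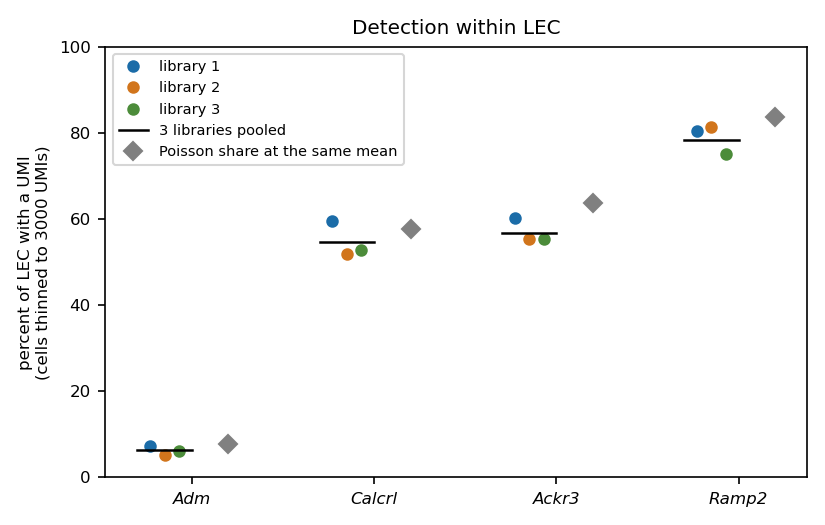
Percent of LEC with at least 1 UMI after thinning to 3000 UMIs (vertical axis) for Adm, Calcrl, Ackr3 and Ramp2, with points for the 3 libraries, a line for the pooled share and a diamond for the share that a Poisson spread gives at the same mean. Pooled shares run from 6.28% for Adm to 78.4% for Ramp2, each below its Poisson share.

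LEC were then split by other transcripts, so that the members could be compared between kinds or states of LEC in each library. Between LEC with Clca3a1 and without Itih5 (1033, 1085 and 1308 cells) and LEC with Itih5 and without Clca3a1 (2496, 1577 and 3252 cells), 3 of 5 tested members were called, where 33.7% of 12098 genes were. Ackr3 was higher in the Clca3a1 cells, at 437, 339 and 371 CPM against 335, 280 and 282 (log2 0.41 ± 0.04, adjusted p = 4.38e-10). Adm was lower, at 22.3, 18.1 and 19.9 CPM against 43.6, 22.9 and 28.1 (-0.59 ± 0.09, adjusted p = 1.20e-06). Calcrl was also lower, at 308, 236 and 237 CPM against 338, 304 and 299 (-0.22 ± 0.04, adjusted p = 0.000128). All 3 libraries had the same order for each of these genes, and the 2 ranges overlapped for Calcrl, through library 1, but not for Ackr3 and Adm. Without the library block Ackr3 alone was called (Adm adjusted p = 0.0681, Calcrl adjusted p = 0.14). Ramp2 did not pass (-0.01 ± 0.04, adjusted p = 0.832). Median depth was 6557 to 7560 UMIs in the Clca3a1 cells and 7342 to 8904 in the Itih5 cells. All 3 calls held in the thinned fit, but there the groups were still chosen at full depth. The part of depth in the choice of cells was thus not tested.

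Proliferating LEC, with UMIs of both Mki67 and Top2a, numbered 59, 57 and 65 cells. Their receptor transcripts made up a lower share of UMIs than in LEC with neither gene. Of 5 tested members, 4 were called on a background of 35.7% of 12743 genes. Ackr3 was at 230, 193 and 171 CPM against 375, 315 and 323 (log2 -0.86 ± 0.09, adjusted p = 5.88e-15). Calcrl was at 201, 174 and 179 CPM against 329, 273 and 275 (-0.75 ± 0.09, adjusted p = 4.60e-12). Ramp2 was at 517, 472 and 437 CPM against 645, 645 and 553 (-0.46 ± 0.08, adjusted p = 2.20e-07). For these genes no proliferating sum reached any value of the other cells. Adm went the other way, at 62.0, 49.6 and 23.2 CPM against 34.6, 20.4 and 24.3, higher in libraries 1 and 2 and not in library 3 (0.65 ± 0.17, adjusted p = 0.000946). The Adm call was lost without library 2 (0.40, adjusted p = 0.108), without the block (0.66, adjusted p = 0.106) and in thinned cells (0.78, adjusted p = 0.0859). Proliferating LEC were deeper, with medians of 12050 to 14724 UMIs against 6712 to 8050. The thinned fit, with the groups still chosen at full depth, kept the Ackr3, Calcrl and Ramp2 calls. It compares shares of UMIs, so whether a proliferating cell held fewer of these transcripts was not tested. Seen from Adm, 3.81% of 683 LEC with at least 2 Adm UMIs were proliferating (exact 95% interval 2.50% to 5.53%) against 0.774% of 16158 with none (0.644% to 0.921%). In thinned cells these shares were 2.48% of 202 (0.808% to 5.68%) and 0.661% of 16956 (0.544% to 0.794%), the former resting on 5 cells. The intervals are over cells pooled from 3 libraries; within library 3 they overlapped (0.674% to 4.76% and 0.532% to 0.937%), as they did in thinned cells of every library.

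LEC were also split by the RNA of 6 immediate-early genes (Fos, Fosb, Jun, Junb, Egr1 and Atf3), transcription factors that are switched on within minutes of a stimulus. The tissue had been digested for 60 min at 37 °C before the sort, and whether these transcripts arose before or during it was not tested. In each library the LEC with the highest summed CPM of these genes (1414, 1192 and 2034 cells) were compared with those with the lowest (1414, 1193 and 2034 cells), at 36042 to 43551 CPM against 656 to 2747 CPM. Ackr3 was higher in the immediate-early-high LEC, at 416, 375 and 388 CPM against 295, 237 and 256 (log2 0.86 ± 0.06, adjusted p = 1.07e-09), and the ranges did not overlap. Adm was also higher, at 41.1, 22.8 and 23.6 CPM against 27.5, 17.0 and 20.5 (0.68 ± 0.08, adjusted p = 2.60e-06), in each library but with overlapping ranges. Calcrl (-0.11 ± 0.06, adjusted p = 0.172) and Ramp2 (-0.14 ± 0.07, adjusted p = 0.109) did not pass, so 2 of 4 tested members were called, both higher in the high group, on a background of 38.1% of 12147 genes called and 21.2% higher. This depends on the scale. On plain CPM, without TMM scaling, the median of all genes moved from 0.00 to -0.28. On that scale Ackr3 (0.59, adjusted p = 2.25e-06) and Adm (0.41, adjusted p = 0.00170) were still higher, while Calcrl (-0.39, adjusted p = 0.000138) and Ramp2 (-0.42, adjusted p = 4.02e-05) were called lower. Calcrl was also called lower without library 1 (-0.17, adjusted p = 0.00756). The high group was deeper, with median depths of 7135 to 8593 UMIs against 5938 to 7207. The thinned fit kept the Ackr3 and Adm calls, but with the groups still chosen at full depth. This split and that by proliferation are not separate. Proliferating LEC held the 6 immediate-early genes at 13778, 8897 and 10028 CPM in libraries 1, 2 and 3, against 23112, 16891 and 21907 in LEC with neither Mki67 nor Top2a. Whether the lower Ackr3 of proliferating LEC goes with proliferation or with this difference was not tested.

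In the remaining splits Adm, Calcrl, Ackr3 and Ramp2 differed by at most 0.28 on the log2 scale. In LEC with at least 3 UMIs of the interferon genes Ifit1, Ifit3, Rsad2 and Usp18 (1780, 1270 and 1931 cells), 2 of 5 tested members were called against LEC with none, where 7.91% of 12529 genes were, 4.89% higher and 3.02% lower. Ackr3 was at 353, 290 and 294 CPM against 394, 332 and 340 (log2 -0.18 ± 0.02, adjusted p = 1.50e-05), and Calcrl at 342, 287 and 277 CPM against 311, 257 and 270 (0.11 ± 0.03, adjusted p = 0.00821). Both shifts had 1 direction in all 3 libraries, but the ranges of the groups overlapped, and without the library block neither was called (adjusted p = 0.953 and 1.000). The Calcrl call was also lost with DESeq2 (adjusted p = 0.258) and in thinned cells (adjusted p = 0.15). The interferon cells were deeper, with median depths of 7574 to 9174 UMIs against 6352 to 7356. The part of depth in the choice of these cells was not tested. In LEC with at least 2 UMIs of Ptgs2, the inducible cyclooxygenase (159, 52 and 89 cells), 0 of 5 tested members were called by edgeR, and DESeq2 also called 0, where 9.33% of 12732 genes were called by edgeR, 5.91% higher and 3.42% lower. At an unadjusted p under 0.05 there was 1 of 5 (2536 of 12732 genes in all), Ramp3, with 8 UMIs in the Ptgs2 cells (log2 1.61 ± 0.78, adjusted p = 0.228). The Ptgs2 cells were also deeper, with median depths of 8663 to 10076 UMIs against 6743 to 8059.

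**Figure D5:**
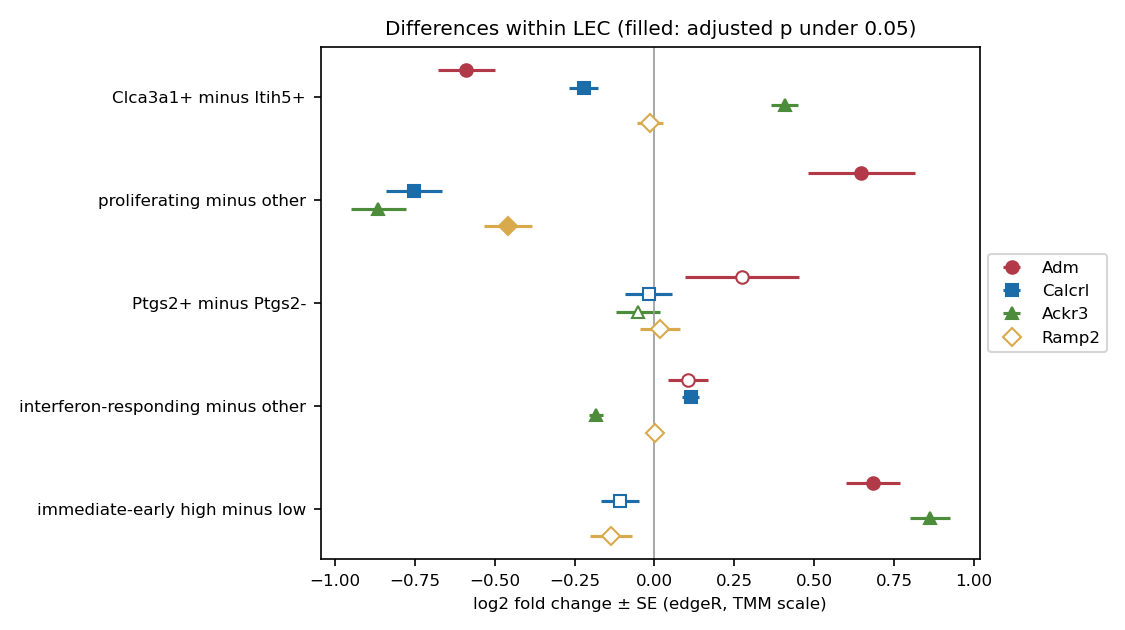
Log2 fold change with its SE (horizontal axis) of Adm, Calcrl, Ackr3 and Ramp2 between 2 sides of 5 splits of LEC (rows), filled where the adjusted p was under 0.05. Ackr3 and Adm lie at 0.86 and 0.68 in immediate-early-high LEC, Ackr3, Calcrl and Ramp2 lie below 0 in proliferating LEC, and all Ptgs2 points are open.

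Other genes of the same pathways were taken from lists chosen with earlier results of these data known. Their counts are to be read against all genes tested, of which 13.0% were higher in LEC and 12.0% in BEC, and 26.7% were higher in LEC and 22.9% in fibroblasts. Of 20 genes of cAMP signalling, the messenger raised by Calcrl, 18 were tested between LEC and BEC: 1 was higher in LEC and 7 in BEC, with a median log2 difference of -0.33 beside 0.17 for all genes. Rapgef4, a cAMP-activated exchange factor for the small GTPase Rap, was at 0.302 ± 0.0643 CPM in LEC and 90.01 ± 45.3 in BEC (n = 3), a log2 difference of -8.12 ± 0.64 (adjusted p = 2.03e-35). Gnas, which encodes the stimulatory G protein, was slightly higher in LEC (0.38 ± 0.14, adjusted p = 0.0294), a call lost under 7 alternatives (adjusted p from 0.0517 to 0.206). Against fibroblasts 9 of 19 tested cAMP genes were higher in LEC and 6 in fibroblasts, led by the adenylate cyclases Adcy4 (34.6 ± 2.97 against 0.649 ± 0.632 CPM) and Adcy5 (0.114 ± 0.118 against 49.99 ± 9.60 CPM).

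Of 10 genes that process or break down peptides, 8 were tested between LEC and BEC, with 2 higher on each side. Pcsk6, a proprotein convertase, was at 277 ± 5.77 CPM in LEC and 9.51 ± 5.28 in BEC (log2 4.85 ± 0.31, adjusted p = 3.05e-54, n = 3) and was also higher than in fibroblasts (1.64 ± 0.11, adjusted p = 8.11e-13). Its relative Pcsk5 was lower in LEC than in BEC (-6.07 ± 0.76, adjusted p = 2.35e-14) and fibroblasts (-8.78 ± 0.29, adjusted p = 5.60e-19). Of 6 receptor kinases and arrestins, which silence receptors such as Calcrl, 1 of 5 tested was called, a share below the 25.1% of all genes: Grk2 was lower in LEC than in BEC (-1.58 ± 0.27, adjusted p = 1.06e-07; without library 2, -1.16, adjusted p = 0.0547). Against fibroblasts 2 of 6 were higher in LEC, with Arrb1 at 1.25 ± 0.11 (adjusted p = 6.59e-10), and 2 lower, with Grk3 at -7.22 ± 0.53 (adjusted p = 9.91e-12).

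Adm is a known target of the hypoxia response, and 18 of 19 genes of that list were tested between LEC and BEC: 3 were higher in LEC and 6 in BEC (median -0.73). Epas1, a hypoxia-inducible transcription factor, was at 64.3 ± 13.2 CPM in LEC and 884 ± 37.4 in BEC (log2 -3.83 ± 0.16, adjusted p = 4.88e-125, n = 3). Egln3, an oxygen sensor enzyme, was higher in LEC (2.03 ± 0.41, adjusted p = 6.42e-06). Against fibroblasts 8 were higher in LEC and 6 lower, with Ndrg1 at 3.29 ± 0.11 (adjusted p = 7.79e-19) and P4ha2 at -4.58 ± 0.36 (adjusted p = 4.38e-11). In immediate-early-high LEC, 9 of 17 tested hypoxia genes were higher and 0 lower than in the low group, where 21.2% of all genes were higher, with a median of 0.28 beside 0.00 for all genes. These values are on the TMM scale, and the list's median is no larger than the shift between the scales (all-gene median -0.28 on plain CPM): Ndrg1 (0.28 ± 0.06, adjusted p = 0.00110) was at 490 CPM against 488 on plain CPM. Among them, named after their values were seen, Pfkfb3, a regulator of glycolysis, was at 134 CPM against 59.1 on average (1.44 ± 0.07, adjusted p = 4.19e-12) and Vegfa at 16.2 CPM against 8.85 (1.17 ± 0.12, adjusted p = 1.99e-07), and both were also higher on plain CPM (1.16 and 0.89). The cAMP phosphodiesterase Pde4b stood at 254 CPM against 126 (1.29 ± 0.06, adjusted p = 5.97e-13). Of the cAMP list 4 of 16 tested genes were higher and 0 lower, near the 21.2% of all genes that were higher.

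Profiles over classes gave little detail on which genes are most like the members. Over the 4 classes with at least 20 cells in every library (LEC, BEC, fibroblast and epithelial), between 18 and 245 of 8913 other genes had a Pearson's r of at least 0.99 with a given member on the log2(CPM + 1) scale, so the nearest genes cannot be told apart. Over pooled levels of 9 classes, a choice made after the data were seen, the closest genes were Meox1 (r = 0.970) for Ackr3, Cpne8 (0.976) for Ramp2, Fbxl17 (0.969) for Calcrl, Fmo1 (0.969) for Adm, Jam2 (0.952) for Aplnr, Src (0.928) for Ramp1 and Traf1 (0.925) for Ramp3. The classes of each library share its depth and free RNA, so these values are descriptions.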

How the data were processed

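The data are UMI counts per gene and barcode from 3 droplet libraries (10x 3′ v3), deposited by the authors as filtered matrices with no cell annotation. The reads had been demultiplexed and counted by the authors before deposit: the submitters' processing notes name Cell Ranger 6.1.2, bcl2fastq 2.2 and the build mm10, with no annotation release. Totals were 58857545, 69231794 and 74571090 UMIs, which sets the counting error of each level.

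Barcodes with under 500 genes or over 15% mitochondrial UMIs were removed (572, 971 and 464). Classes were gated on raw UMIs: LEC as above, BEC by Plvap (at least 5) and Pecam1 (1), fibroblasts by Col1a2 (5) and Dcn (3), epithelial cells by Epcam (2) and Krt8 (3), smooth muscle by Myh11 (2) and Acta2 (5), myeloid cells by Tyrobp (3) and Csf1r (1), and T or innate lymphoid cells by Ptprc (1) with Cd3e or Il7r (1) and no Csf1r. The gates are rebuilt, not the authors'. No doublet caller was run; 817 barcodes passing several gates were left out.

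Counts were summed per library and class and tested with edgeR 4.0.16 (filterByExpr, TMM, quasi-likelihood; R 4.3.3), the library as block because both sums of a library come from 1 pool of animals and 1 run. Sums needed 20 cells. Calls are at an adjusted p of 0.05. The procedure was tested on simulated data (200 changed genes): for LEC against BEC (12707 genes) it recovered 28.1% of changes of log2 1 and 71.3% of changes of log2 2. DESeq2 1.42.0, no TMM, no block, no low-count filter, a stricter LEC gate (Prox1 2, Lyve1 10), thinning to 3000 UMIs and leaving out each library were alternatives. The thinned fits kept the classes and groups chosen at full depth. Intervals are exact 95% ones for counting error; where a count is 0, the limit printed is 3 UMIs, a one-sided value below the end of the exact interval.

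Members and lists were chosen with earlier results of these data known. Beside the members, 1 gene per list and direction is named against BEC and against fibroblasts, that of the largest fold (called, same sign in 3 libraries, at least 20 CPM), and the text names the genes with the highest correlation to a member; other genes are named as chosen after their values were seen.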

Additional observations from a re-analysis of the deposited data

How the results depend on the processing

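Of the values of single genes, 790 alternatives kept direction and call, 27 lost the call, 5 gained it and 13 changed sign, none of them called. Alternatives in which a gene did not pass the filter on low counts, or had no adjusted p, are not in these counts. Cells thinned to 3000 UMIs gave fewer calls, from fewer UMIs: 2090 genes against BEC (3184 with all UMIs), with 2 members, 4403 against fibroblasts (6712), 2146 against smooth muscle (5027), 2638 for Clca3a1 (4080), 2043 for proliferation (4553), 607 for Ptgs2 (1188) and 561 for interferon (991), the last with 1 member.

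Without the replicate block, which pairs the 2 sums of a library, calls were 1843 for Clca3a1 (1 member), 461 for Ptgs2, 141 for interferon (0 members) and 2867 for the immediate-early split (4631 with it). DESeq2 called 2094, 674, 385 (1 member) and 2343 in the same order; the cause was not tested. Without TMM the immediate-early split had 7475 calls, with 4 members, and 1171 higher against 6304 lower (2580 and 2051 with TMM). That scaling also moved the split of higher and lower calls for Clca3a1 (1422 and 2644, from 2044 and 2036), proliferation (2705 and 1735, from 2310 and 2243) and Ptgs2 (650 and 713, from 752 and 436). DESeq2 moved it for Ptgs2 (513 and 161) and myeloid cells (2233 and 1997, from 3775 and 2169). With barcodes of several gates kept, LEC levels were 2.02 CPM for Ramp1, 1.37 for Ramp3 and 0.472 for Aplnr.

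Leaving out each library gave 2239 (without library 2) to 4851 calls against smooth muscle, 3586 (without library 2) to 6131 against myeloid cells, 2895 (without library 2) to 5142 against T or innate lymphoid cells, and 706 (without library 1) to 996 for Ptgs2. The sign changes were all small. Calcrl against BEC was 0.039 when thinned. Ramp2 in the Clca3a1 split was 0.0088 when thinned and -0.040 to 0.017 with a library left out. In the Ptgs2 split Calcrl was 0.063 when thinned and -0.067 to 0.030 with a library left out, and Ramp2 was -0.025 with no filter, -0.029 without TMM and -0.11 to 0.12 with a library left out. Ramp2 in the interferon split was -0.0025 with DESeq2, -0.0035 with no filter, -0.0016 without TMM and -0.0063 to 0.0059 with a library left out. Ramp3 was called there without library 1 (1.17, adjusted p = 0.0407). Depth limits the values in BEC, where Adm rested on 12 UMIs, Apln on 14 and Ramp3 on 31.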
